A study of Drosophila melanogaster with 36 samples.

Results

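H3K9me3 chromatin immunoprecipitation (ChIP) from ovaries with germline knockdown of rhino was compared with the same ChIP from control knockdown ovaries, bin by bin along the fly genome. Members were the 1 kb bins of the dm3 assembly with an input average of at least 25% of its median and a mappability index of at least 0.5, and 115199 of the 139714 deposited bins met both conditions. The index is the share of a bin to which reads can be placed. All groups were ovaries of Drosophila melanogaster females aged 4 to 6 days. The groups used were the germline knockdown of rhino (2 H3K9me3 libraries), the germline knockdown of piwi (2 H3K9me3 libraries) and the control germline knockdown (2 H3K9me3 libraries), with 2 libraries of control input. One antibody lot served all H3K9me3 libraries. Rhino ChIP, RNA polymerase II (Pol II) ChIP, nascent RNA from a nuclear run-on, small RNA and total RNA (RNA-seq) from rhino knockdown and control served as further readouts. The sources used here name neither the driver nor the hairpin, nor what the control knockdown targeted. A whole ovary also holds somatic follicle cells, in which a germline knockdown leaves rhino untouched. A change in germline chromatin and a change in the share of germline cells cannot be told apart in these bulk samples.

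H3K9me3 is the trimethyl mark on lysine 9 of histone H3 that defines constitutive heterochromatin, where HP1-family proteins bind it. Rhino is an HP1 relative of the germline that binds the same mark over dual-strand piRNA clusters, loci read from both strands into precursors of Piwi-interacting RNAs (piRNAs). Piwi, loaded with piRNAs, guides transcriptional silencing and H3K9me3 to its nuclear targets, so the mark both recruits Rhino and lies downstream of the small RNAs that Rhino-bound loci supply.

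Each H3K9me3 group was deposited as an average of its 2 libraries, which permits no test between groups, and all values below are descriptions. A value is the number of reads in a bin scaled to the library's total and divided by the mappability index, plus an offset of 0.1. Because reads are whole numbers, the average could be split into its 2 libraries in bins of low signal. The rhino knockdown libraries were scaled to totals of 15890000 reads (called the larger library) and 14000000 reads (the smaller library), and the control libraries to 10820000 and 10790000 reads. Both groups could be split in 74665 bins (64.8%), which include 39 lost, 190 kept and 0 gained bins as defined below. In fully mappable euchromatic bins, the median value stood for about 157 reads of both libraries together in rhino knockdown and 99 in the control, a counting error of 7.98% and 10.05% per bin.

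The 2 rhino knockdown libraries stood apart from each other. Over the split bins, log2 signal over input in the larger library correlated with the control libraries at Pearson's r = 0.65 and 0.74. The smaller library correlated with them at 0.27 and 0.10, and the 2 control libraries correlated with each other at 0.62. The 2 rhino knockdown libraries correlated with each other at 0.13. All these correlations share the input, and choosing bins with a low rhino knockdown average itself lowers the last of them. The smaller library also tracked the Rhino ChIP of rhino knockdown ovaries (r = 0.37), a ChIP with little of its target left, whereas the larger library did not (r = -0.28). Which library is replicate 1 in the labels is not known. Results in bins of low signal are therefore given for each library as well.

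Most bins that carried H3K9me3 in the control changed by less than 2-fold after rhino knockdown. Changes are differences of log2(value + 1), rhino knockdown minus control, a scale that understates changes of low values. Over all 115199 bins the median change was 0.095 (quartiles -0.19 and 0.39), and 41.2% of bins were lower at all in rhino knockdown. A bin was called marked where the control average was at least 2-fold over input, and 10461 bins were marked. Over these the median change was -0.31 (quartiles -0.56 and -0.027), against 0.13 over the 104738 unmarked bins. Marked bins thus lay below the rest of the genome, in heterochromatin and in euchromatin alike. Choosing bins by a high control value itself pulls their change downward. Scaling the columns to equal medians over euchromatic bins lowered the changes, by an amount that depends on the level of a bin. The median of all bins moved by -0.15 to -0.056, and the median of marked bins was then -0.48.

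**Figure D1:**
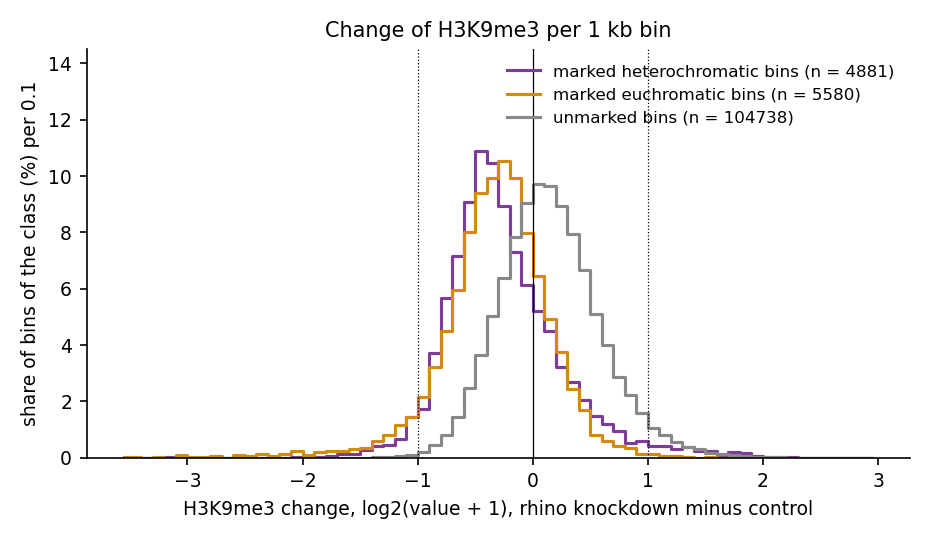
Distribution of the H3K9me3 change per 1 kb bin, as the share of bins per step of 0.1 (vertical axis, percent) against the difference of log2(value + 1), rhino knockdown minus control (horizontal axis). Marked bins with and without the heterochromatic flag both peak below 0, unmarked bins peak just above 0, and dotted lines show a 2-fold change.

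Loss of the mark by at least 2-fold was rare. A marked bin was called lost where its value was at least 2-fold lower in rhino knockdown, and 544 bins were lost, which is 0.472% of all bins and 5.2% of marked bins. A bin was called gained where it was at least 2-fold higher in rhino knockdown and at least 2-fold over input there, and 713 bins (0.619%) were gained. Of the gained bins, 146 were already marked in the control (1.4% of marked bins) and 567 were not. The other 9771 marked bins were called kept. Lost bins made up 43.3% of all lost and gained bins, and 72.7% after scaling to equal euchromatic medians, with 991 bins lost and 372 gained.

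Lost bins had median values of 14.9 in rhino knockdown and 40.9 in the control, so much of the loss left signal above input, whose median there was 8.46. Kept bins had medians of 25.6 in rhino knockdown and 30.1 in the control. Gained bins had medians of 27.7 in rhino knockdown and 10.2 in the control. Their call requires a rhino knockdown value at least 2-fold over input, so a level near that of kept bins follows in part from the definition. In 107 lost bins the 2 rhino knockdown libraries could be split. In 84 of these both libraries were at least 2-fold below the control average. The medians of the split lost bins were 7.15 and 4.67 in the larger and the smaller library, against 22.3 in the control average. These bins have low rhino knockdown values by selection, and with an average that low neither library can exceed the control.

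The change followed the starting level of the mark. Bins at 2- to 4-fold over input in the control had a median change of -0.20 (4747 bins), those at 4- to 8-fold -0.35 (4559 bins) and those at 8-fold or more -0.58 (1155 bins). In the last class the median value was 51.9 in rhino knockdown and 78.2 in the control, and 136 bins (11.8% of the class) were lost. Its bins without the heterochromatic flag, called euchromatic here and including those of chromosome 4, lost the mark in 15.0% of 507 bins. Its heterochromatic bins lost it in 9.26% of 648 bins. The control value enters both the class and the change, so this order is a description.

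Chromosome 4, which is largely heterochromatic in its chromatin but carries no such flag in the deposited table, showed the most uniform decrease among the long sequences. Its median change was -0.41 (quartiles -0.60 and -0.20) over 1087 bins, with medians of 29.1 in rhino knockdown and 39.0 in the control. It held 53 lost bins, 939 kept and 0 gained. The scaffold 3LHet had a median change of -0.40 and 2RHet of -0.39, with 39 and 45 lost bins. The flagged ends of 2L, 3L and 2R had medians of -0.38, -0.36 and -0.36. Pericentromeric heterochromatin next to the assembled arms, the autosomal scaffolds 2RHet and 3LHet, and chromosome 4 therefore shifted down by a like amount.

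Other scaffolds differed from that pattern. The scaffold 3RHet had a median change of 0.037 with wide quartiles of -0.34 and 0.68, and it held 81 gained bins, 378 kept and 3 lost. After scaling to equal euchromatic medians its median was -0.14, and 65 of its bins were still called gained. XHet had a median of -0.084 (102 bins), the unplaced scaffold U -0.053 (456 bins) and 2LHet -0.16 (78 bins). YHet kept 1 bin, with 14.6 in rhino knockdown and 23.0 in the control.

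**Figure D2:**
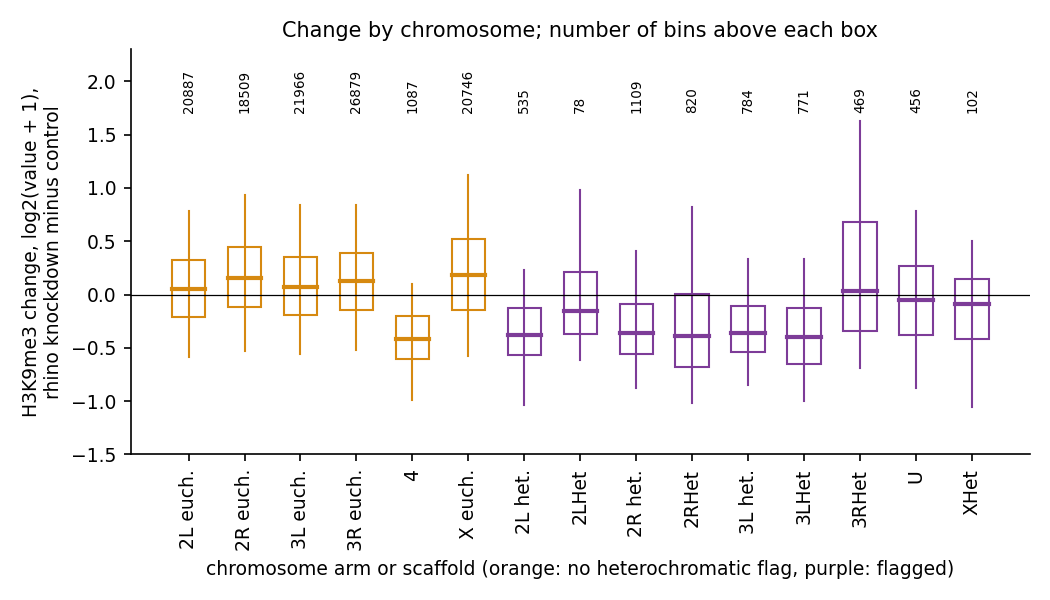
H3K9me3 change per bin, log2(value + 1), rhino knockdown minus control (vertical axis), by chromosome arm or scaffold; boxes show quartiles and median, lines the 5th to 95th percentile, and numbers the bins. Chromosome 4 and most flagged sequence lie below 0, the euchromatic arms slightly above 0, and 3RHet spreads upward.

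The euchromatic arms had small positive medians, and the X chromosome had the highest at 0.18, beside 0.056 on 2L, 0.15 on 2R, 0.073 on 3L and 0.12 on 3R. Loss and gain were spread unevenly over them. The X held 18.0% of all bins but 364 of the 713 gained bins, which is 1.75% of its bins against 0.369% of bins elsewhere, and 70 lost bins. The whole of 2L held 36 gained bins and 115 lost bins, and 3L held 51 and 71. On 2R, 77 bins were gained and 85 lost, and on 3R 60 were gained and 48 lost. After scaling to equal euchromatic medians the medians of 2L, 2R, 3L and 3R fell below 0, the X kept a median of 0.026, and 171 X bins were gained and 142 lost.

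Exon overlap separated the gained from the lost bins. Of the 713 gained bins 65.6% overlapped an annotated exon, against 44.3% of lost, 33.8% of kept and 46.0% of unmarked bins. In euchromatin 467 exon bins were gained and 206 lost, whereas 116 bins without an exon were gained and 155 lost. In heterochromatin 1 exon bin was gained and 35 were lost, whereas 129 bins without an exon were gained and 148 lost. Gain in exons was thus a feature of the arms, above all of the X with 308 gained exon bins, and gain in heterochromatin lay outside exons.

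The median change in heterochromatin was -0.46 over 776 exon bins (quartiles -0.68 and -0.25), with medians of 20.2 in rhino knockdown and 26.6 in the control. Over 4349 heterochromatic bins without an exon it was -0.28 (quartiles -0.53 and 0.054), with medians of 30.2 and 34.8 in the same order. In euchromatin the median was 0.17 over 51168 exon bins and 0.069 over 58906 bins without an exon. The exon bins of chromosome 4 are counted as euchromatic here for want of the flag, and had a median of -0.42 over 695 bins.

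The euchromatic shift went opposite ways in the 2 rhino knockdown libraries, except over X bins without an exon. In 29927 split euchromatic exon bins the median change from the control average was -0.12 in the larger library and 0.31 in the smaller one, against 0.12 for their average. In 44581 split euchromatic bins without an exon it was -0.049 and 0.11, against 0.046 for their average. In 6573 split X bins without an exon both lay above the control average, at 0.032 and 0.10, whereas in 3284 split X exon bins the values were -0.12 and 0.25. All split euchromatic bins differed by -0.48 (exon) and -0.34 (no exon) between the 2 control libraries, that of 10820000 reads minus the other. The difference between the groups in low euchromatic bins was therefore smaller than the difference between libraries of 1 group. None of the 713 gained bins could be split, so whether both libraries carried the gain was not tested.

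Rhino binding in the control did not mark out the bins that lost H3K9me3 among those that passed the mappability minimum. A bin was called Rhino-bound where control Rhino ChIP, from libraries other than the H3K9me3 ones, was at least 4-fold over input. Of the 544 lost bins 39 (7.17%) were Rhino-bound, against 811 of 9771 kept bins (8.30%). Among the 918 marked and bound bins the share lost was 4.25%, and among the 9543 marked and unbound bins it was 5.29%, both near the 5.2% of all marked bins. Below the mappability minimum the share lost was 16.2% of marked bound and 11.3% of marked unbound bins. The median change was -0.16 in marked bound bins and -0.32 in marked unbound bins.

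The decrease became smaller with Rhino level in most classes. In heterochromatin the median change was -0.34 below 2-fold Rhino over input, -0.33 at 2- to 4-fold, -0.14 at 4- to 8-fold, 0.044 at 8- to 16-fold and 0.072 at 16-fold or more. In euchromatin it was 0.12, -0.28, -0.20, -0.13 and -0.64 in the same classes, of which the first is 3.77% marked bins. Over marked bins alone it was -0.36, -0.33, -0.14, 0.044 and 0.072 in heterochromatin and -0.29, -0.32, -0.23, -0.19 and -0.68 in euchromatin. The medians of the 2 highest classes thus had opposite signs in heterochromatin and euchromatin, and the highest class differed most. The most strongly bound heterochromatic bins (30 bins) had a median of 88.5 in rhino knockdown and 55.6 in the control, and 0 were lost. The most strongly bound euchromatic bins (36 bins) had a median of 45.4 in rhino knockdown and 64.0 in the control, and 9 were lost. Of these 36 bins 29 lie in cluster 42AB, with a median change of -0.77 and all 9 lost bins, and the other 7 had a median of -0.035. After scaling to equal euchromatic medians the 2 highest heterochromatic classes had medians of -0.13 and -0.11. The scaffold 3RHet held 139 of the 605 Rhino-bound heterochromatic bins. Without 3RHet the median of all Rhino-bound bins was -0.20, against -0.14 with it.

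**Figure D3:**
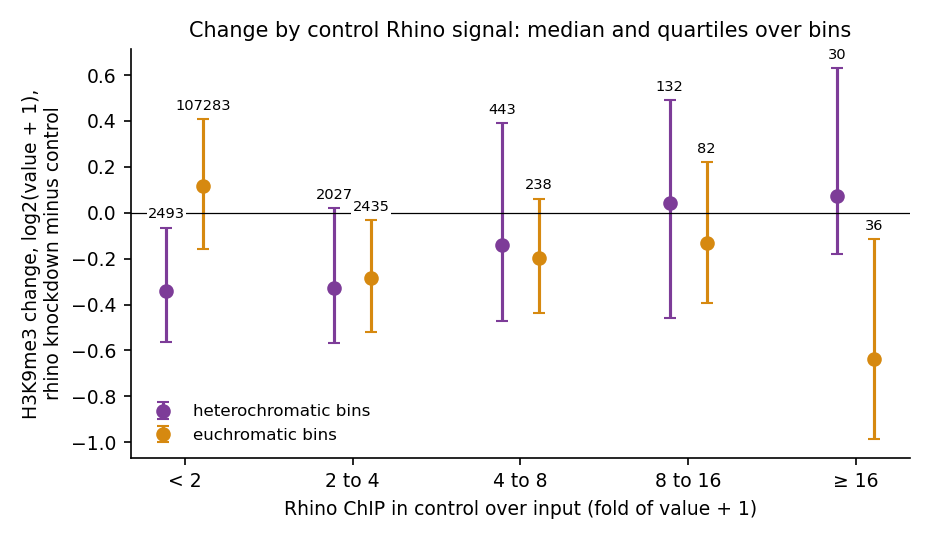
Median and quartiles (bars) over bins of the H3K9me3 change, log2(value + 1), rhino knockdown minus control (vertical axis), by control Rhino ChIP over input (horizontal axis), with the number of bins above each bar. In heterochromatin the median is highest in the 2 strongest Rhino classes (0.044 and 0.072), and in euchromatin it is lowest in the strongest class (-0.64), where 29 of 36 bins lie in cluster 42AB.

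The piRNA clusters differed among themselves. The knockdown was visible in the Rhino ChIP over 121 bins of 5 dual-strand clusters, with a mean of 12.3 in rhino knockdown and 172 in the control. Their H3K9me3 had a median change of -0.22 (95% interval over bins -0.34 to -0.12, bins not being independent), with 11 bins lost, 105 kept and 1 gained. Mean Rhino ChIP was 9.32 in rhino knockdown and 324 in the control at 42AB, and 12.9 and 126 at 80F. At the distal chromosome 4 cluster it was 15.99 and 154 in the same order. The decrease was smaller at 38C2, with 19.3 and 50.7, and at 38C1, with 9.17 and 28.4. In whole ovaries, 42AB, 80F and the distal chromosome 4 cluster thus lost most of their mean Rhino signal and kept most of their mean H3K9me3 signal. The 38C clusters, described below, kept more of their Rhino signal. Follicle cells, which the knockdown leaves untouched, add to the H3K9me3 signal, so how much of it germline cells kept was not tested. Most bins of the clusters fall below the mappability minimum, so these values describe their unique parts.

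Cluster 42AB (2R 2144001 to 2387000), the largest source of germline piRNAs, decreased most. Its mean H3K9me3 was 43.4 in rhino knockdown and 62.5 in the control over 38 bins, and the median change was -0.65 (95% interval over bins -0.79 to -0.35). It held 9 of the 11 lost bins of the dual-strand clusters, and 34 of 38 bins were lower. From its start to its end in 3 stretches of equal length, the medians were -0.22 (15 bins), -1.03 (4 bins) and -0.74 (19 bins), so the decrease was weakest over the first stretch. Small RNA over the same bins had a mean of 81.0 in rhino knockdown and 3266 in the control. Without 42AB the median of the other dual-strand clusters was -0.10.

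Cluster 80F (3L 23273001 to 23315000) had a mean of 57.2 in rhino knockdown and 70.7 in the control, with a median change of -0.38 and 2 of 35 bins lost. The distal chromosome 4 cluster (4 1258001 to 1349000) had a mean of 59.1 in rhino knockdown and 72.8 in the control, with a median change of -0.082 over 20 bins. Both 38C clusters went the other way. Cluster 38C2 (2L 20104001 to 20119000) had a mean of 40.4 in rhino knockdown and 32.4 in the control, and all 11 bins were higher, with a median change of 0.31. Cluster 38C1 (2L 20148001 to 20228000) had a mean of 20.9 in rhino knockdown and 17.9 in the control, with a median change of 0.18 over 17 bins and 1 bin gained. After scaling to equal euchromatic medians the medians were 0.14 at 38C2 and 0.0040 at 38C1. Small RNA over 38C2 nonetheless had a mean of 6.65 in rhino knockdown and 1096 in the control, and over 38C1 5.54 in rhino knockdown and 341 in the control.

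The uni-strand clusters, read from 1 strand, served for comparison. Mean control Rhino ChIP was 14.6 over flamenco and 9.92 over 20A, and 1 of their 21 bins was Rhino-bound. The median log2 of control Rhino over input was 0.16 at 20A. At flamenco it was 1.55, above the 1.29 of the distal chromosome 4 cluster, so flamenco was not low in Rhino by that measure. Flamenco (X 21505001 to 21685000), which supplies piRNAs to somatic follicle cells, had a mean of 27.3 in rhino knockdown and 33.2 in the control and a median change of -0.41 (95% interval over bins -0.69 to 0.080, 14 bins). Its small RNA had a mean of 1866 in rhino knockdown and 1720 in the control. Cluster 20A (X 21392001 to 21432000) had 8.40 in rhino knockdown and 10.98 in the control, with a median change of -0.44 over 7 bins. The telomeric ends of 2L and 2R, which carry telomere-associated repeats, had median changes of -0.18 and -0.31 over 7 bins each, and no bin of the end of 3R passed the filters. Of the 7 bins of 20A only 2 were marked, and its 95% interval over bins was -0.91 to 0.31. The medians of the uni-strand clusters were as low as that of 80F and lower than those of the other dual-strand clusters except 42AB. Both uni-strand intervals span no change, whereas that of 80F was -0.60 to -0.20 over 35 bins, so this order is a description.

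Part of the lost bins lay in runs. Joining lost bins with gaps of up to 3 kb gave 54 runs of at least 3 lost bins, which held 279 of the 544 lost bins (51.3%). Lost bins can come only from marked bins, and how far marked bins form such runs by themselves was not measured. Of these runs 47 held no Rhino-bound bin, where 918 of the 10461 marked bins and 0.834% of all bins are bound. Runs without the heterochromatic flag numbered 33, with 6 of them on chromosome 4. Clusters listed in the deposited table held 5 of the runs, 1 of them in the clusters and ends described above. The runs are named here by position, since no annotation of this assembly was at hand. The 10 runs with the largest summed loss are described.

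The strongest run (2L 18527001 to 18545000, 17 of 18 bins overlapping exons) lost its whole domain. Its mean H3K9me3 was 5.06 in rhino knockdown, below the input of 9.80, and 29.6 in the control. All 18 bins were lost, with log2 changes of -3.44 to -1.47. Over 17 split bins the 2 rhino knockdown libraries had means of 3.48 and 6.34, against 30.0 in the control. The nearest Rhino-bound bin lay 1558 kb away, and small RNA was low, with means of 2.72 in rhino knockdown and 1.29 in the control. Its highest loss was in the bin 18532001 to 18533000, with 2.82 in rhino knockdown and 40.5 in the control.

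Other euchromatic runs fell close to the input level on average. Run 2L 19154001 to 19170000 had a mean of 14.7 in rhino knockdown and 47.5 in the control, with an input of 11.9 and 933 kb to the nearest Rhino-bound bin. Run 2L 16605001 to 16610000 had 4.15 in rhino knockdown and 22.8 in the control, and its 5 bins overlapped exons. Run 3L 18804001 to 18812000, with no exon, had 5.77 in rhino knockdown and 19.2 in the control. In the first of these, 3 of 16 bins near its centre stayed at least 2-fold over input in rhino knockdown.

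A pair of runs lay close together on 3L. Run 3L 14013001 to 14018000 had a mean of 7.87 in rhino knockdown and 48.7 in the control, with all 5 bins lost and all in exons. Its nascent RNA had a mean of 23.0 in rhino knockdown and 8.66 in the control, and its Pol II ChIP 22.4 in rhino knockdown and 8.76 in the control. Run 3L 14045001 to 14052000 had 15.4 in rhino knockdown and 70.9 in the control, with 1 Rhino-bound bin among 7. Its nascent RNA was high in both, at 28.3 in rhino knockdown and 26.1 in the control. The first of the pair is the run among the 10 in which nascent RNA and Pol II were both more than 2-fold higher in rhino knockdown.

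Runs in heterochromatin and on chromosome 4 lost part of a strong mark. Run 2L 22354001 to 22371000 (flagged heterochromatic) had a mean of 29.0 in rhino knockdown and 75.8 in the control, above an input of 6.74. Its Pol II ChIP had a mean of 21.7 in rhino knockdown and 6.93 in the control, while nascent RNA was 29.2 in rhino knockdown and 28.9 in the control. Run 4 934001 to 949000 had 48.8 in rhino knockdown and 125 in the control, and run 4 873001 to 887000 had 72.2 in rhino knockdown and 167 in the control. All 3 stayed at least 3-fold over input in rhino knockdown, on the log2(value + 1) scale at 1.87, 2.45 and 3.08.

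The 3LHet run (2146001 to 2159000, all 10 bins in clusters listed in the deposited table, 6 of them Rhino-bound) differed from the other 9. Its mean H3K9me3 was 8.87 in rhino knockdown and 23.9 in the control. Its small RNA was 1.72 in rhino knockdown and 74.1 in the control. The Rhino ChIP of rhino knockdown was also low there relative to input, at a median log2 of -1.12, against -0.12 over kept bins of the genome. Whether the region is present in equal copy number in both genotypes was not tested, since the input came from control ovaries.

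**Figure D4:**
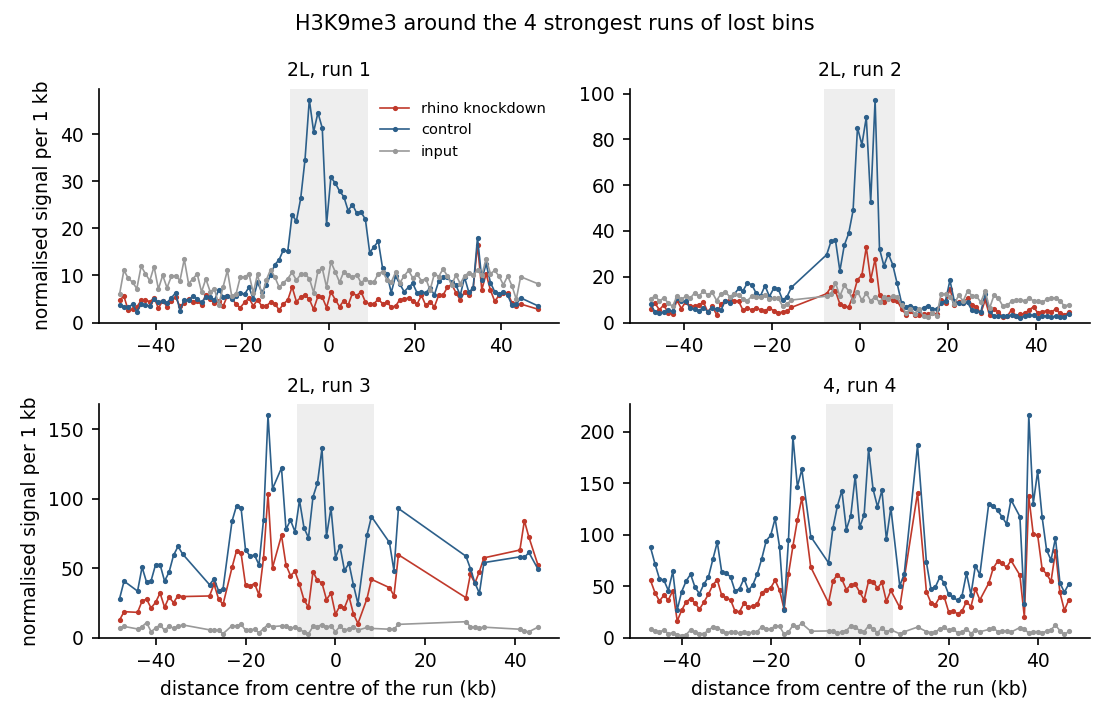
Normalised H3K9me3 signal per 1 kb bin (vertical axis) in rhino knockdown (red) and control (blue), with control input (grey), against the distance in kb from the centre of the 4 runs of lost bins with the largest summed loss; shading marks the run. On 2L run 1 falls below input over its whole length and run 2 falls to near input except in its centre, whereas run 3 and the chromosome 4 run lie in broadly marked sequence and stay above input.

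Among single lost bins, a pair at the tip of 3L stood among the 5 largest losses and was Rhino-bound in the control. Bin 3L 37001 to 38000 had 1.01 in rhino knockdown and 22.3 in the control, and bin 3L 36001 to 37000 had 0.20 in rhino knockdown and 9.14 in the control. Rhino ChIP there was 1.97 in rhino knockdown and 46.3 in the control in the first, and 8.67 in rhino knockdown and 69.9 in the control in the second. The other 2 bins were 3L 14014001 to 14015000 and 2R 1466001 to 1467000, with changes of -3.24 and -3.12. In piwi knockdown the pair at the tip of 3L had 0.15 and 0.10, the last being the value of a bin without reads. Whether that sequence is present in equal copy number in all 3 genotypes was not tested.

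Gained bins also formed runs, 81 in number with 351 of the 713 gained bins (49.2%). The X held 46 of them and 3RHet 9, and 71 held no Rhino-bound bin. Of the 713 gained bins 71 (9.96%) were Rhino-bound, against 0.834% of all bins and 8.30% of kept bins. The 3RHet run (620001 to 638000) had the largest summed gain. All of its 14 bins were gained, with log2 changes of 1.30 to 2.12. Its mean H3K9me3 was 65.1 in rhino knockdown and 19.9 in the control, with an input of 2.60. All 14 bins were Rhino-bound in the control and lay in listed clusters. Small RNA had a mean of 6.45 in rhino knockdown and 149 in the control, while nascent RNA had 8.22 in rhino knockdown and 0.90 in the control. A locus rich in piRNAs in the control thus gave more H3K9me3 and nascent RNA signal, and far less small RNA, in rhino knockdown. Its input, from control ovaries, lay near the filter minimum of 2.18. Whether the locus is present in equal copy number in both genotypes was not tested.

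The other named gained runs were euchromatic and little transcribed. Run 2R 3788001 to 3799000 had a mean of 28.9 in rhino knockdown and 8.13 in the control. Run X 1891001 to 1899000 had 25.9 in rhino knockdown and 5.88 in the control, with all 8 bins in exons. Run X 14904001 to 14913000 had 32.2 in rhino knockdown and 11.1 in the control, and run X 1466001 to 1476000 had 25.8 in rhino knockdown and 9.37 in the control. None of these 4 held a Rhino-bound bin. Their small RNA means were 0.67 to 2.96 in rhino knockdown and 0.44 to 4.94 in the control, and their nascent RNA means were 0.45 to 5.98 in rhino knockdown and 0.30 to 5.08 in the control.

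**Figure D5:**
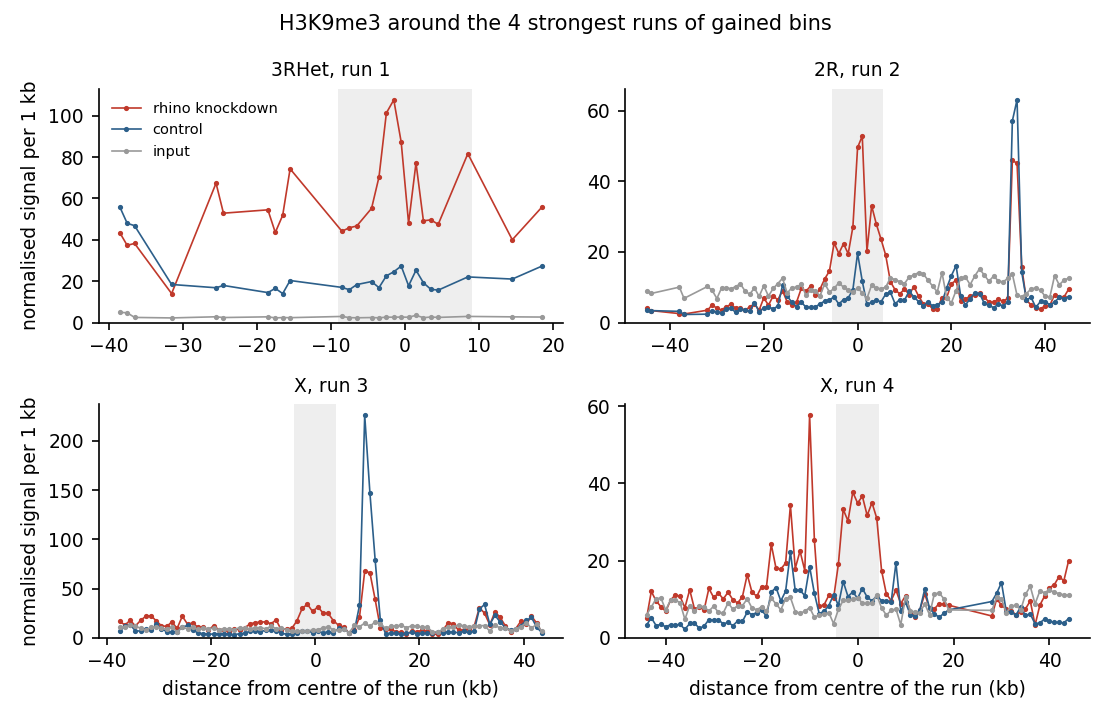
Normalised H3K9me3 signal per 1 kb bin (vertical axis) in rhino knockdown (red) and control (blue), with control input (grey), against the distance in kb from the centre of the 4 runs of gained bins with the largest summed gain; shading marks the run. The 3RHet run lies above the control over its whole length with a low input, and the 2R and X runs rise out of sequence near input in the control.

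The single bins with the largest gain were not Rhino-bound. Bin 3L 22092001 to 22093000 had 71.9 in rhino knockdown and 11.4 in the control. Bin X 14071001 to 14072000 had 20.6 in rhino knockdown and 2.69 in the control, and bin 3R 4898001 to 4899000 had 36.5 in rhino knockdown and 5.58 in the control. The bins 2R 20304001 to 20305000 and 2R 4318001 to 4319000 had changes of 2.43 and 2.37. Of the 5 bins, 4 overlapped an exon.

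Gained bins carried more Rhino ChIP signal in rhino knockdown ovaries, where that ChIP has little of its target left. Its median log2 over control input was 0.56 in gained bins, -0.35 in lost, -0.12 in kept and -0.063 in unmarked bins. In 130 heterochromatic gained bins it was 1.15, with medians of 8.20 for that ChIP and 2.84 for input, and in 583 euchromatic gained bins it was 0.46, with medians of 13.7 and 9.53. The same measure ordered the change in heterochromatin and in euchromatin. The median H3K9me3 change was -0.44 in 2743 heterochromatic bins where that ChIP was below input, -0.25 at 1- to 1.41-fold (1241 bins), -0.013 at 1.41- to 2-fold (788 bins) and 0.43 at 2-fold or more (353 bins). In euchromatin it was -0.022, 0.23, 0.41 and 0.57 in the same classes. Pearson's r across the 5125 heterochromatic bins was 0.50, and 0.46 without 3RHet. It was 0.40 across euchromatic bins and 0.46 across X exon bins. With control Rhino over input r was 0.20 in heterochromatin, and 0.090 without 3RHet. It was -0.33 in euchromatin and 0.0040 in marked euchromatic bins. Neighbouring bins share their position and copy number, and the Rhino and H3K9me3 ChIPs share the genotype, whose own input was not used. What part DNA copy number or background has in the gains was not tested.

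Transcription readouts set the classes apart in the control already. Lost bins had a median nascent RNA of 11.4 in rhino knockdown and 10.7 in the control, whereas kept bins had 1.5 in rhino knockdown and 1.69 in the control. Pol II ChIP had a median of 10.6 in rhino knockdown and 9.31 in the control in lost bins, and 2.96 in rhino knockdown and 3.18 in the control in kept bins. RNA-seq had a median of 1.31 in rhino knockdown and 1.36 and 1.67 in the control libraries in lost bins, and 0.12 in rhino knockdown and 0.20 and 0.29 in the control libraries in kept bins. Bins that lost the mark were thus more transcribed than those that kept it. Nascent RNA of lost bins changed by a median of only -0.069 on the log2(value + 1) scale.

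Heterochromatic gained bins were the class in which nascent RNA differed most. Their median was 4.07 in rhino knockdown and 0.10 in the control, the value of a bin without reads, and the median of the bins' log2 changes was 1.81. Pol II ChIP had a median of 2.04 in rhino knockdown and 1.12 in the control, and RNA-seq 0.34 in rhino knockdown and 0.09 and 0.10 in the control libraries. Of these 130 bins 67 (51.5%) were Rhino-bound, against 11.2% of heterochromatic kept bins. The Rhino-bound and gained calls both divide by input, whose median was 2.84 in these gained bins and 5.93 in the kept ones. Control Rhino ChIP itself had medians of 16.4 and 12.9 in the same order. Whether DNA copy number is equal in both genotypes there was not tested. Small RNA of the heterochromatic gained bins had a median of 2.23 in rhino knockdown and 34.1 in the control. Euchromatic gained bins had a median nascent RNA of 1.00 in rhino knockdown and 0.81 in the control.

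Small RNA did not follow the loss of the mark. The median log2 change of small RNA was -0.28 in lost bins and -0.90 in kept bins, and in heterochromatin -1.02 in lost and -2.65 in kept bins. In heterochromatic kept bins its median was 0.91 in rhino knockdown and 14.7 in the control. Bins in which the small RNA was mostly gone thus kept their whole-ovary H3K9me3 signal in the larger part of heterochromatin. That signal includes follicle cells, and its germline part was not measured apart.

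The piwi knockdown shares the control libraries, so its values are set beside those of rhino knockdown and no overlap is read from them. Of the marked bins, 6.3% were at least 2-fold lower and 3.13% at least 2-fold higher in piwi knockdown. Euchromatic lost bins had medians of 12.8 in rhino knockdown, 14.1 in piwi knockdown and 38.8 in the control. Heterochromatic lost bins had 21.1 in rhino knockdown, 38.9 in piwi knockdown and 49.2 in the control. The strongest lost run of 2L had means of 5.06 in rhino knockdown, 4.38 in piwi knockdown and 29.6 in the control, while the 3LHet run had 8.87, 29.4 and 23.9 in the same order. The largest gained run on 3RHet had 65.1 in rhino knockdown, 82.0 in piwi knockdown and 19.9 in the control, whereas the gained run X 1891001 to 1899000 had 25.9, 5.18 and 5.88 in the same order. On chromosome 4 the medians of the change from the shared control were -0.41 in rhino knockdown and -0.58 in piwi knockdown, and on 2RHet -0.39 and 0.23.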

How the data were processed

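The authors deposited 1 table of normalised signal (coverage) per 1 kb bin on dm3, with decimal commas. Per the submitters' processing notes, bedtools 2.16.1, SAMtools 0.1.16, GSNAP, Bowtie 0.12.7 and cutadapt 1.0 were used, in roles the notes do not state. Other deposited columns are flags and the mappability index, and their derivation is not given in the sources used here. Whole-read steps in the values gave the scaling described above, and each H3K9me3 group, control Rhino ChIP and input are averages of 2 libraries made by the authors. Values were compared as log2(value + 1) with Python 3.11.15, pandas 2.3.3 and SciPy 1.17.1. Marked, lost, kept, gained and Rhino-bound bins were called at 2-fold and 4-fold as stated. Medians carry distribution-free binomial intervals over bins, which cover neither animals nor libraries. The pair of whole read numbers behind an average was searched within the rounding of 6 digits and was unique in every bin below the limit of each group. This split was added after seeing the data, and the procedure was tested on simulated data. The simulated data were built with the same totals, offset and rounding that the split assumes, so that test cannot check these settings. limma was not run on the split bins, since they are chosen by low rhino knockdown signal. Members, regions, thresholds and lists were chosen with earlier results of these data known. Named were all chromosomes, 10 listed clusters and ends, the 10 lost and 5 gained runs with the largest summed log2 change, and 5 single bins each way.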

Additional observations from a re-analysis of the deposited data

How the results depend on the processing

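Values are median changes (log2) unless called counts. A pseudocount of 0.1 gave 0.11 for all bins, 0.13 for euchromatic and -0.21 for Rhino-bound bins. A pseudocount of 5 gave 0.056 for all, 0.064 for euchromatic, -0.078 for Rhino-bound, -0.25 for heterochromatic non-exon and -0.38 for heterochromatic exon bins, with counts of 315 lost and 330 gained. Without the input filter the values were 0.090 for all, -0.19 for Rhino-bound, -0.26 for heterochromatic non-exon and -0.43 for heterochromatic exon bins. With input of at least 50% of its median they were 0.11 for all, 0.12 for euchromatic and -0.31 for heterochromatic non-exon bins. Without the mappability filter they were 0.082 for all, -0.29 for marked and -0.25 for heterochromatic non-exon bins, with counts of 1524 lost and 1237 gained. A mappability index of at least 0.9 gave 0.10 for all, -0.32 for marked and -0.34 for heterochromatic non-exon bins.

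Rescaling to equal euchromatic medians turned the sign for all bins (-0.056) and euchromatic bins (-0.041). It gave -0.48 for marked, -0.31 for Rhino-bound, -0.46 for heterochromatic non-exon and -0.63 for heterochromatic exon bins, -0.40 for dual-strand clusters and -0.83 for 42AB, with counts of 991 lost and 372 gained. A 1.5-fold change gave counts of 2459 lost and 1449 gained, and a 4-fold change 59 and 44. Requiring the mark at 4-fold over input gave -0.40 for marked bins and counts of 331 lost and 169 gained. Rhino-bound bins had -0.28 at 2-fold and -0.086 at 8-fold over input. Chosen after seeing the data, leaving out 3RHet gave -0.20 for Rhino-bound and -0.31 for heterochromatic non-exon bins, leaving out 42AB gave -0.10 for the dual-strand clusters, and leaving out the X gave a count of 349 gained. In split euchromatic bins, each rhino knockdown library alone gave -0.12 and 0.31 for exon bins and -0.049 and 0.11 for others, so the sign there turns with the library.

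Of 89 recomputed values, 37 stayed within the interval over bins or within 1.5 times a count, and 4 turned sign; the cause of the shifts was not tested. No paired analysis was possible because each H3K9me3 group was deposited as 1 averaged column, and the split libraries cannot be matched to replicate numbers. Leaving out each replicate over all bins was not run for the same reason. In gained bins and most marked bins the spread between libraries is unknown.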

Other observations

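Bins below the mappability minimum, where reads of repeats are placed on little unique sequence, were left out above. Among 8543 such bins that passed the input filter, 980 were lost, 5915 kept and 524 gained by the same rules. Their median change was -0.19 (quartiles -0.61 and 0.29), with medians of 33.8 in rhino knockdown and 38.7 in the control. The share of marked bins that were lost was 13.4%, above the 5.2% of the bins used, and the extreme changes were wider, from -5.89 to 6.77. In 3182 of these bins that were Rhino-bound, 508 were lost and 199 gained, with a median change of -0.20. The share of marked bins that were lost was 16.2% among these bound bins and 11.3% among the 5361 unbound bins, whereas it was 4.25% and 5.29% in the bins used above.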
